A study of Solanum lycopersicum with 12 samples.

Results

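The control seedlings of a study of elicitors in tomato, collected 24 h and 6 h after they were given control medium, are described here as a comparison over time without an elicitor. They were found by their titles as untreated seedlings at 24 h and at 6 h, which gave 2 replicates at each time and 4 of the 12 arrays in all. The study also treated seedlings with flg22 at 1 µM, a peptide of bacterial flagellin, or with MBI600 CFCF, a cell-free culture filtrate of Bacillus given at 20% of the volume, and collected them at both times. All plants were 15 days old, had grown on agar with MS medium and were moved to liquid MS medium for 3 h before treatment. For every replicate, RNA was taken from 2 pooled whole seedlings, and the seedlings of the 24 h pools were other plants than those of the 6 h pools. By the methods the control medium was LB in MS medium, by the labels it was water, and the methods are followed here. No seedlings from before the treatment were analysed here, so each value sets 24 h against 6 h and not against a start. The sources used here do not give the hour of the day at either collection. Hours after treatment, the time in liquid medium and the hour of the day therefore cannot be told apart.

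A seedling's transcripts change through the day even when nothing is done to it. Genes of the light-harvesting antenna, whose proteins bind chlorophyll a and b around the photosystems, are known to follow both light and the circadian clock in tomato leaves. Wound, jasmonate and ethylene genes are known to respond to handling as well as to elicitors. Steroidal glycoalkaloids, the bitter defence compounds of the nightshade family, are made in leaves and roots by enzymes of the GAME group.

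RNA was labelled with Cy3 and read in the green channel of a 2-colour Agilent tomato array, and every level below is the deposited log2 green intensity after background correction and quantile normalization. The sources used here do not say what the red channel held. Spots well above background made up 75.3% and 78.3% on the 24 h arrays, against 76.3% and 71.2% on the 6 h arrays, and no spot was saturated. The 24 h replicates correlated at 0.988 over 43603 probes, and the 6 h replicates at 0.9752. The 6 h replicate 2 stood apart, since 2125 probes differed by at least 1 (log2) between the 6 h replicates and 545 between the 24 h replicates. The most probes, 3664, differed that much between 24 h replicate 2 and 6 h replicate 2. The 24 h replicate 1 was closer to 6 h replicate 1 (0.990) than the 6 h replicates were to each other. It was also slightly closer to 6 h replicate 1 than to 24 h replicate 2 (0.988). The arrays lay on 3 slides. The 24 h replicates were on slides 1 and 2 and the 6 h replicates on slides 2 and 3, so slide 2 alone held both times. Of the control arrays only 6 h replicate 2 lay on slide 3, so this array and its slide cannot be told apart. Its median red signal was 64, against 174, 180.5 and 189 on the other control arrays. Of 13 green tissue genes, 12 were well above background on all 4 arrays, as were 11 of 12 genes known from roots. Their summed signals were 821132 and 884348 at 24 h, against 705560 and 540005 at 6 h, for the green tissue genes, and 18725 and 26429 at 24 h, against 18793 and 33121 at 6 h, for the root genes. Some of the green tissue genes are themselves light-harvesting genes. The root total was highest, and the green total lowest, on 6 h replicate 2. In whole seedlings, fewer cells of a type and less RNA per cell cannot be told apart.

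No probe passed the test. In limma's fit of all 12 arrays, 0 of 43603 probes (0%) differed between 24 h and 6 h at an adjusted p under 0.1, and the smallest adjusted p was 0.208. Without 6 h replicate 1 the count was 13, all lower at 24 h, and without any other control array it was 0. At an unadjusted p under 0.05 there were 2054 probes, of which 1058 were higher (2.43% of all) and 996 lower (2.28%) at 24 h. A difference of at least 2 on the log2 scale was seen for 17 probes that were higher and 13 that were lower. The 6 h replicates lay at least 1 (log2) apart for all 13 of the lower probes and for 11 of the 17 higher ones. The median difference over all probes was 0.00. Genes below are therefore described by their levels on each array, and a missed threshold does not show that their levels were alike. Names came from RefSeq for 4884 probes of 2232 genes, and each gene is given by its brightest probe. Over these genes, both 24 h arrays lay above both 6 h arrays for 388 of 2232 and below both for 475 (21.3%), against 16.1% and 16.5% of all probes, which is the background for the counts of genes above and below that follow.

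Genes of the light-harvesting complex, a subset of the photosynthesis list, had the largest median difference of the gene groups described here. The matched photosynthesis list held 11 of them, the CAB genes, and all 11 had a higher mean at 24 h, with a median difference of 0.97 against -0.03 over all matched genes. Both 24 h arrays lay above both 6 h arrays for 8 of the 11, and 7 had an unadjusted p under 0.05, although none passed the adjusted threshold. The subset was singled out after its values were seen. The whole photosynthesis list of 29 genes had a median of 0.27, and of 0.04 without 6 h replicate 2. With all 4 arrays, the water channel and reference gene lists had higher medians than this whole list, both at 0.31.

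CAB12 had the largest positive difference of the named genes. It stood at 11.64 and 11.69 in the 24 h seedlings, against 9.46 and 8.67 in the 6 h seedlings. The 24 h replicates were almost equal and the lower of them was over 2 log2 units above the higher 6 h value. The difference was 2.596 ± 0.38 (SE, n = 2 and 2), a 6.05-fold higher level with a 95% interval of 1.71 to 3.48 on the log2 scale, and limma's adjusted p was 0.335. CAB1B measured 16.87 and 17.04 at 24 h, against 15.73 and 14.89 at 6 h, a difference of 1.64 ± 0.44 (adjusted p = 0.838). CAB13 measured 15.62 and 15.61 at 24 h, against 14.57 and 13.59 at 6 h, and differed by 1.54 ± 0.38 (adjusted p = 0.752). In both, the 6 h replicates were nearly 1 unit apart and replicate 2 was the lower one.

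Cab-1D and CAB5 had closer 6 h replicates than these 3 genes. Cab-1D was at 15.39 and 15.17 in the 24 h seedlings, against 14.38 and 14.06 in the 6 h seedlings. CAB5 was at 16.71 and 16.26 at 24 h, against 15.63 and 15.41 at 6 h. CAB-8 (difference 1.08), CAB4 (0.61) and CAB11 (0.44) also had groups that did not overlap. CAB9 (0.96), CAB7 (0.43) and CAB6A (0.10) overlapped, and for CAB9 the overlap lay in 6 h replicate 1, which at 15.74 exceeded the lower 24 h value of 15.68. The difference held when the array that stood apart was left out: without 6 h replicate 2, 10 of the 11 genes were still higher at 24 h, with a median of 0.84. On slide 2 alone, 24 h replicate 2 was above 6 h replicate 1 for 10 of the 11, with a median of 0.66.

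**Figure D1:**
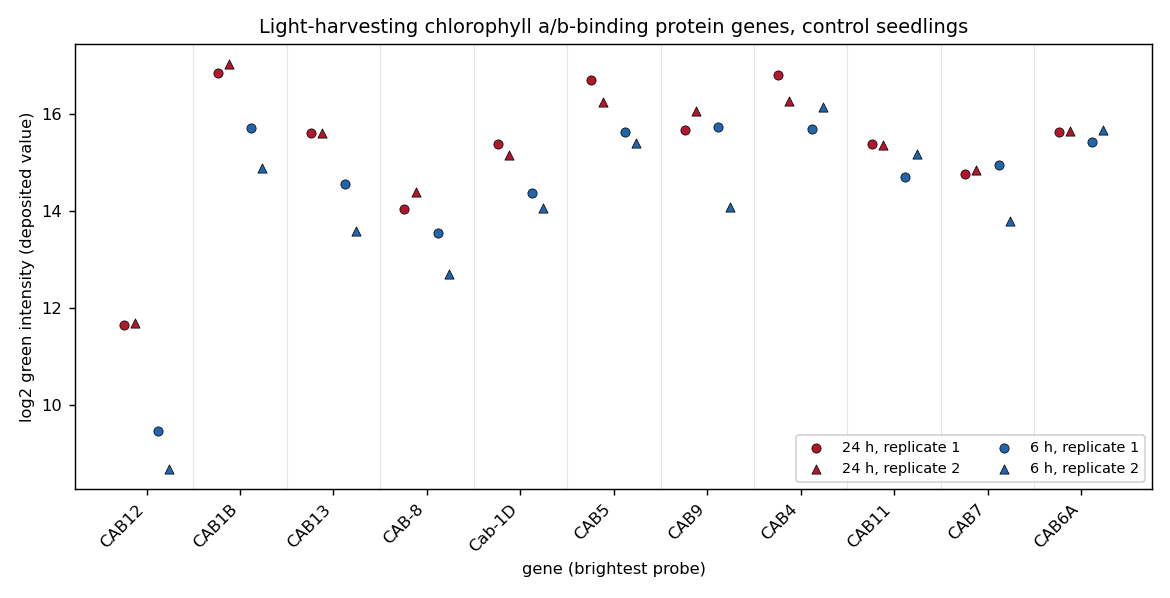
Deposited log2 green intensity (y axis) of the 11 CAB genes (x axis) on each control array, with the 24 h replicates in red left of the 6 h replicates in blue. Both red points lie above both blue points for 8 genes, by the widest margin for CAB12, and 6 h replicate 2 is the lowest point for all but CAB4, CAB11 and CAB6A.

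The array carried 36 probes for these 11 genes, and all 36 were higher at 24 h. Both 24 h arrays lay above both 6 h arrays for 30 of the 36, against 16.1% of all probes. The probes are not independent, since members of the family are alike in sequence and a probe can bind several of them. The size of the difference varied with the probe. The 8 probes of CAB4 ranged from 0.61 to 2.01 with a median of 1.37, and the 6 probes of CAB11 from 0.44 to 2.01 with a median of 1.75. In both genes the brightest probe gave the smallest difference, and the same held for CAB5, whose 3 probes ranged from 0.97 to 1.85. It also held for CAB6A (0.10 and 1.14) and CAB7 (0.43 and 0.59), with 2 probes each. For the dimmer probe of CAB6A both 24 h arrays lay above both 6 h arrays. The values by gene above, taken from the brightest probe, are thus at the low end for these genes. The median over a gene's probes gave a median of 1.37 for the 11 genes.

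**Figure D2:**
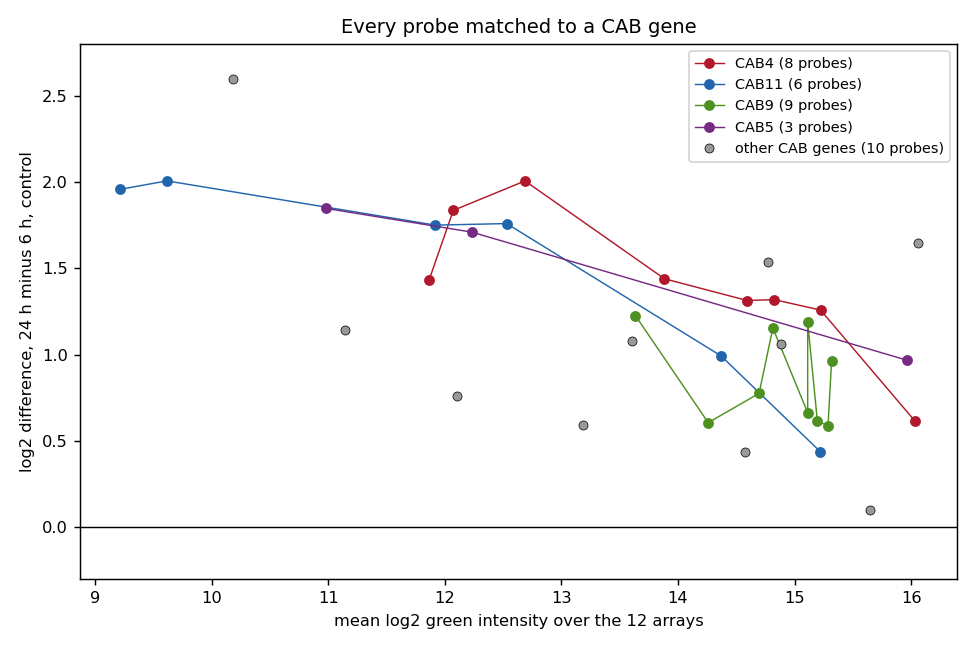
Each point is a probe matched to a CAB gene, with its mean log2 intensity over the 12 arrays on the x axis and its log2 difference between 24 h and 6 h in control seedlings on the y axis. All 36 points lie above 0, and the lines that join the probes of CAB4, CAB11 and CAB5 run down towards the brightest probe.

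The other photosynthesis genes gave a smaller median. These 18 matched members of the list had a median of 0.12, with 13 of 18 higher at 24 h. By the median over a gene's probes it was 0.23, with 15 of 18 higher. Their median by the brightest probe was -0.18 with 6 of 18 higher when 6 h replicate 2 was left out. The small subunit gene rbcS1, of the enzyme that fixes carbon dioxide, stood at 16.50 and 16.17 at 24 h, against 16.68 and 16.81 at 6 h. The photosystem I subunit PSAD (LOC543978) was at 14.59 and 15.08 at 24 h, against 14.95 and 13.03 at 6 h, so its mean difference of 0.84 came from 6 h replicate 2. By its brightest probe POR, which makes chlorophyllide in the light, lay with the CAB genes. It had 13.04 and 12.80 at 24 h, against 12.30 and 11.17 at 6 h (1.19 ± 0.47, adjusted p = 0.924). The other of its 2 probes differed by only 0.23. Of the circadian clock list only 5 of 42 names had a probe matched, and none of them is a core clock gene except PCL1, at 7.59 and 7.52 at 24 h, against 7.58 and 7.85 at 6 h. The light signalling list, with receptors and their partners, had 3 of 16 genes with both 24 h arrays above and 4 below.

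A pair of steroidal glycoalkaloid genes, GAME1 and GAME11, had lower levels at 24 h, with close 6 h replicates only for GAME1. GAME1, which adds galactose to the alkaloid, stood at 11.55 and 11.77 in the 24 h seedlings, against 13.41 and 13.51 in the 6 h seedlings. Both 6 h arrays agree within 0.10 for this gene, and the groups lay far apart. The difference was -1.80 ± 0.29 (95% interval -2.46 to -1.14, adjusted p = 0.384), 3.48-fold higher at 6 h. GAME11, a dioxygenase of the same pathway listed under the symbol gad2, was at 12.81 and 13.01 at 24 h, against 14.25 and 15.12 at 6 h (-1.77 ± 0.45, adjusted p = 0.791). All 10 probes of gad2 and both of GAME1 were lower at 24 h. The carotenoid and isoprenoid list that holds GAME1 had 10 of 29 genes with both 24 h arrays below and 4 above, with a median of -0.10, and CrtR-b1, a carotene hydroxylase, was among those above with a difference of 1.11.

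**Figure D3:**
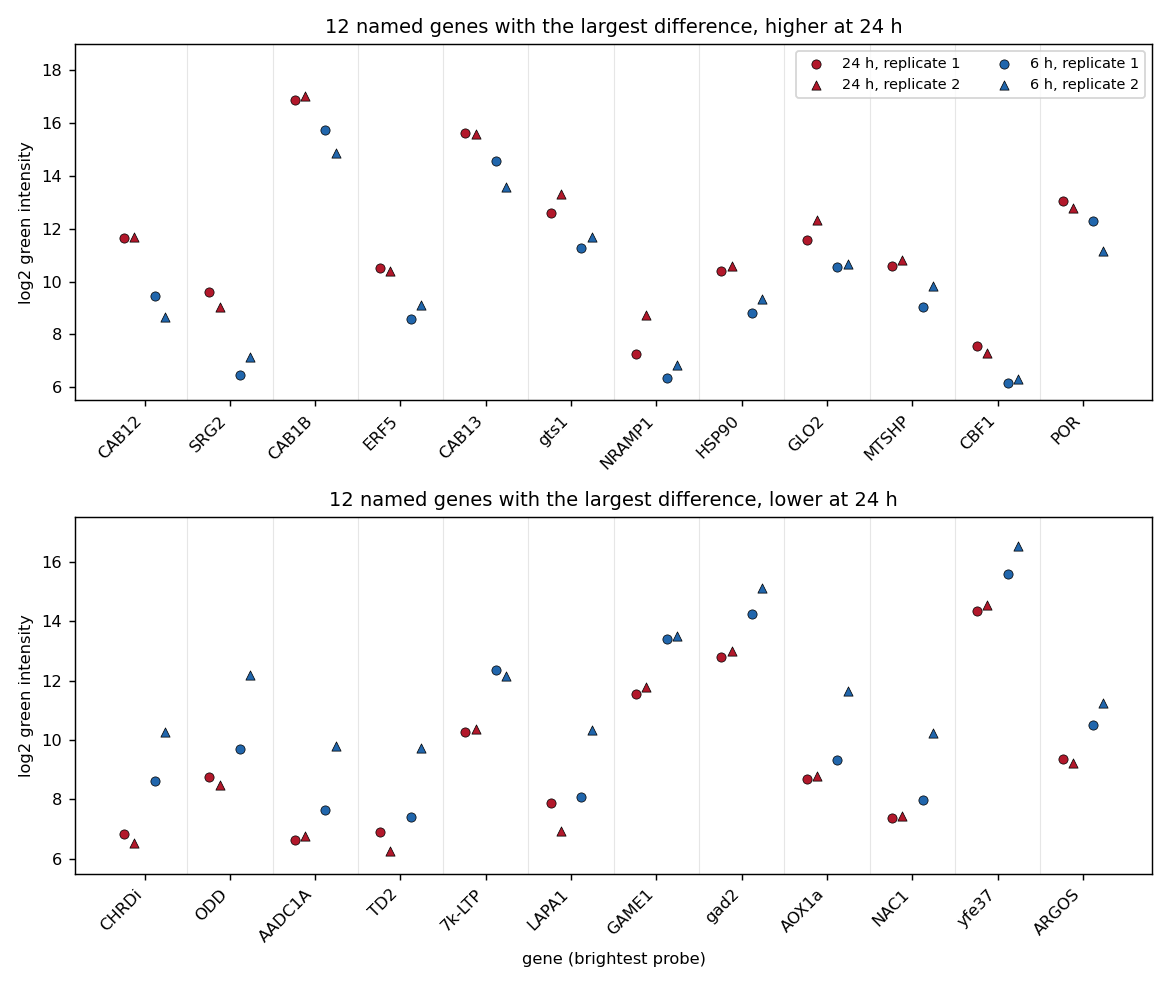
Deposited log2 green intensity (y axis) of the 12 named genes with the largest difference in each direction (x axis), among those whose groups do not overlap, on each control array, with the 24 h replicates in red left of the 6 h replicates in blue. In the upper panel the 6 h replicates lie more than 1 unit apart only for POR, and in the lower panel for 7 of the 12 genes, always with replicate 2 farther from the 24 h arrays, whereas those of GAME1 and 7k-LTP nearly coincide.

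The following genes were among the 12 named genes with the largest positive difference. SRG2 stood at 9.61 and 9.03 at 24 h, against 6.46 and 7.16 at 6 h, a 5.68-fold difference (2.51 ± 0.59, adjusted p = 0.725). ERF5, a transcription factor of the ethylene response family, measured 10.50 and 10.41 at 24 h, against 8.59 and 9.11 at 6 h (1.60 ± 0.42, adjusted p = 0.812). CBF1, known for its role in cold, measured 7.57 and 7.29 at 24 h, against 6.15 and 6.30 at 6 h. Groups that do not overlap were a condition for the choice of all 12 genes. HSP90, a chaperone, was at 10.40 and 10.57 at 24 h, against 8.81 and 9.36 at 6 h (1.40 ± 0.40, adjusted p = 0.858). This was the largest difference of its 3 probes, and the smallest was 0.29. MTSHP, a small heat shock protein of mitochondria, was at 10.58 and 10.83 at 24 h, against 9.03 and 9.84 at 6 h. All 5 of its probes were higher, by 0.40 to 1.27, with the brightest the highest. GLO2 was at 11.57 and 12.34 at 24 h, against 10.54 and 10.66 at 6 h (1.35 ± 0.42, adjusted p = 0.911). The heat and general stress list as a whole was mixed, with 5 of 27 genes above and 4 below on both arrays and a median of 0.20. LE25, a protein of drying seeds, was at 6.99 and 6.69 at 24 h, against 7.55 and 8.64 at 6 h, a difference of -1.25 that came to -0.71 without 6 h replicate 2. The lipid transfer protein gene TSW12 differed by -1.14, and by -0.76 without 24 h replicate 1, while CEVI-1 was higher (1.18).

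Genes of nitrogen and mineral uptake differed in both directions. gts1, which encodes a glutamine synthetase, was at 12.61 and 13.32 in the 24 h seedlings, against 11.29 and 11.68 in the 6 h seedlings (1.48 ± 0.60, adjusted p = 0.924). The metal transporter gene NRAMP1 was at 7.26 and 8.72 at 24 h, against 6.34 and 6.84 at 6 h. AMT1-3, an ammonium transporter of roots, ran the other way with 11.43 and 11.18 at 24 h, against 12.73 and 12.81 at 6 h. Its difference of -1.47 had an unadjusted p of 0.00207 and an adjusted p of 0.679. GABA-TP2, a transaminase that breaks down GABA, was also lower (-1.16), while the nicotianamine synthase CHLN (1.04) and the phosphate transporter PT1 (0.83, and 0.44 without 6 h replicate 1) were higher. Of the 46 genes of the list, 10 had both 24 h arrays above and 12 below, the median was 0.01, and 8 that were higher and 4 that were lower had an unadjusted p under 0.05, against 4.53% and 5.73% of all matched genes.

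Of the jasmonate and wounding genes 8 of 29 had a higher mean at 24 h, against 46.5% of all matched genes. On slide 2 alone 13 of 29 were higher, against 50.1% of all matched genes. Here 6 h replicate 2 decided the size of the largest differences. TD2, a threonine deaminase that acts against insects, stood at 6.91 and 6.28 at 24 h, against 7.42 and 9.74 at 6 h. LAPA1, a leucine aminopeptidase made after wounding, stood at 7.88 and 6.94 at 24 h, against 8.10 and 10.33 at 6 h. A gene of the phenylpropanoid and flavonoid list looked alike: AADC1A, a decarboxylase of aromatic amino acids, stood at 6.64 and 6.78 at 24 h, against 7.66 and 9.81 at 6 h. In each, 6 h replicate 1 lay within 1 unit of a 24 h array, and replicate 2 lay over 2 units above replicate 1. The mean differences were -1.99 ± 1.19 for TD2, -1.80 ± 1.02 for LAPA1 and -2.02 ± 0.56 for AADC1A (adjusted p = 0.924, 0.924 and 0.852). In each the brightest probe, given here, had the largest difference. The smallest was -0.36 among the 7 probes of TD2, -0.06 among the 4 of LAPA1 and -0.40 among the 3 of AADC1A. JA2, a NAC transcription factor named for jasmonic acid, did not depend on that array: it was at 9.19 and 9.24 at 24 h, against 10.40 and 10.10 at 6 h. Of the 29 jasmonate and wounding genes, 12 had both 24 h arrays below and 1, the lipoxygenase LOX1.1, above. The list's median of -0.18 came to -0.05 without 6 h replicate 2.

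Of the 23 phenylpropanoid and flavonoid genes 9 had a higher mean at 24 h, and 11 on slide 2 alone, which is near the share of all matched genes, and the size of the list's median depended on the same array. CHS1, chalcone synthase, which opens flavonoid synthesis, was at 9.64 and 10.17 at 24 h, against 10.79 and 12.12 at 6 h. Its regulator MYB12 was at 7.40 and 7.35 at 24 h, against 8.22 and 8.20 at 6 h, so here both 6 h arrays agree. F3'5'H, a hydroxylase of the pathway, was lower at 24 h on both arrays as well (-1.23). The 23 phenylpropanoid and flavonoid genes had a median of -0.41, the lowest of the lists, which became -0.07 without 6 h replicate 2 and -0.76 without 6 h replicate 1. AOX1a, the alternative oxidase of mitochondria, followed the same pattern, with 8.70 and 8.78 at 24 h, against 9.32 and 11.65 at 6 h. NAC1 and ODD did so too, with differences of -1.68 and -2.33. Other probes of these genes gave smaller differences, down to -0.78 for AOX1a, -0.38 for NAC1 and -1.01 for ODD. CHRDi had the largest negative difference of the named genes (-2.77 ± 0.86, adjusted p = 0.912), with 6.82 and 6.53 at 24 h, against 8.63 and 10.26 at 6 h. The yfe37 gene was at 14.34 and 14.53 at 24 h, against 15.60 and 16.53 at 6 h. In both, replicate 2 was again the higher 6 h array, and replicate 1 also lay over 1 unit above both 24 h arrays. The summed root markers were highest and the summed green tissue markers lowest on 6 h replicate 2, as given above, and their part in these differences was not tested. That array was also the only control array on slide 3, and the part of the slide was not tested either.

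Ethylene genes differed in both directions. ACO1, the enzyme that releases ethylene, was at 7.70 and 7.63 at 24 h, against 9.14 and 9.05 at 6 h (-1.43 ± 0.54, adjusted p = 0.924), and CEVI57 was at 6.65 and 6.65 at 24 h, against 7.88 and 7.98 at 6 h. PTI5, a response factor that binds the Pto kinase, was lower too (-1.08, and -0.68 without 6 h replicate 2). On the higher side stood ERF5 and cevi19 (0.89). The ethylene list holds cevi19, although the study counts it among genes of jasmonate synthesis. Of 47 genes, 8 had both 24 h arrays above and 16 below, with a median of -0.17, and without 6 h replicate 2 the median was 0.00. Of the 33 salicylate and pathogenesis-related genes, 7 were above and 10 below. P69B, a subtilisin-like protease, was higher (1.101), as was WRKY81 (1.00), and the xylanase receptor gene Eix1 (-1.11) and the chitinase gene CHI14 (-1.10) were lower. Without 6 h replicate 2 the difference was -0.65 for Eix1 and -0.32 for CHI14. PR1b1, the classical marker of salicylate responses, had overlapping groups, with 10.05 and 9.41 at 24 h, against 10.43 and 8.15 at 6 h.

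Of the 34 matched sugar and starch genes, 12 had both 24 h arrays below and 4 above, with a median of -0.13. The invertase LIN9 was at 7.65 and 7.37 at 24 h, against 8.45 and 9.01 at 6 h (-1.22, unadjusted p = 0.000262, adjusted p = 0.394). The wound invertase Wiv-1 (-0.995) and the hexose transporter HT2 (-1.31) were lower too, but without 6 h replicate 2 they differed by only -0.52 and -0.68. The hexokinase HXK3 was higher (0.74). The redox list had 1 of 23 genes above and 8 below, among them GME1 of ascorbate synthesis (-0.87), and the lipid list had 0 of 13 above and 4 below. The organ size gene ARGOS, which auxin induces in Arabidopsis, was lower, with 9.37 and 9.23 at 24 h, against 10.52 and 11.24 at 6 h (-1.58 ± 0.35, adjusted p = 0.662). Its other probe, with a difference of -1.09, had the smallest unadjusted p of all probes, 1.73e-05.

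Growth and hormone lists lay close to the median of all genes. The auxin list had 6 of 32 genes above and 7 below on both arrays with a median of 0.00, and IAA27, a repressor of auxin signalling, was among the higher (0.69, and 0.44 without 6 h replicate 2). The cell wall list had 6 of 48 above and 10 below with a median of -0.06, and its highest member was the xyloglucan enzyme gene tXET-B1, at 9.58 and 9.36 at 24 h, against 8.48 and 8.23 at 6 h. The abscisic acid list had 0 of 14 above and 5 below, PP2C-2 among them (-1.07). The gibberellin list had 4 of 12 above and 3 below, with the synthesis gene GA3ox1 on the higher side (0.53). The cytokinin and brassinosteroid list had 4 of 9 above and 1 below, and the cell cycle list 6 of 21 above and 2 below, with medians of 0.10 and 0.13. Among the 7 low oxygen genes, 0 were above and 2 below, and ADH2, an alcohol dehydrogenase, had its lowest and highest value in the same group, at 13.56 and 13.04 at 24 h, against 10.76 and 13.97 at 6 h. All 6 water channel genes had a higher mean at 24 h, with a median of 0.31, but only 1 had groups that did not overlap. Of 10 reference genes, 5 were above and 0 below with a median of 0.31, and ubi3, a ubiquitin gene used as a reference in qPCR, was at 14.19 and 14.11 at 24 h, against 13.85 and 13.39 at 6 h. In the 11 genes matched from the study's primer table, 2 were above and 6 below, with TD2 and ACO1 as the lowest.

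**Figure D4:**
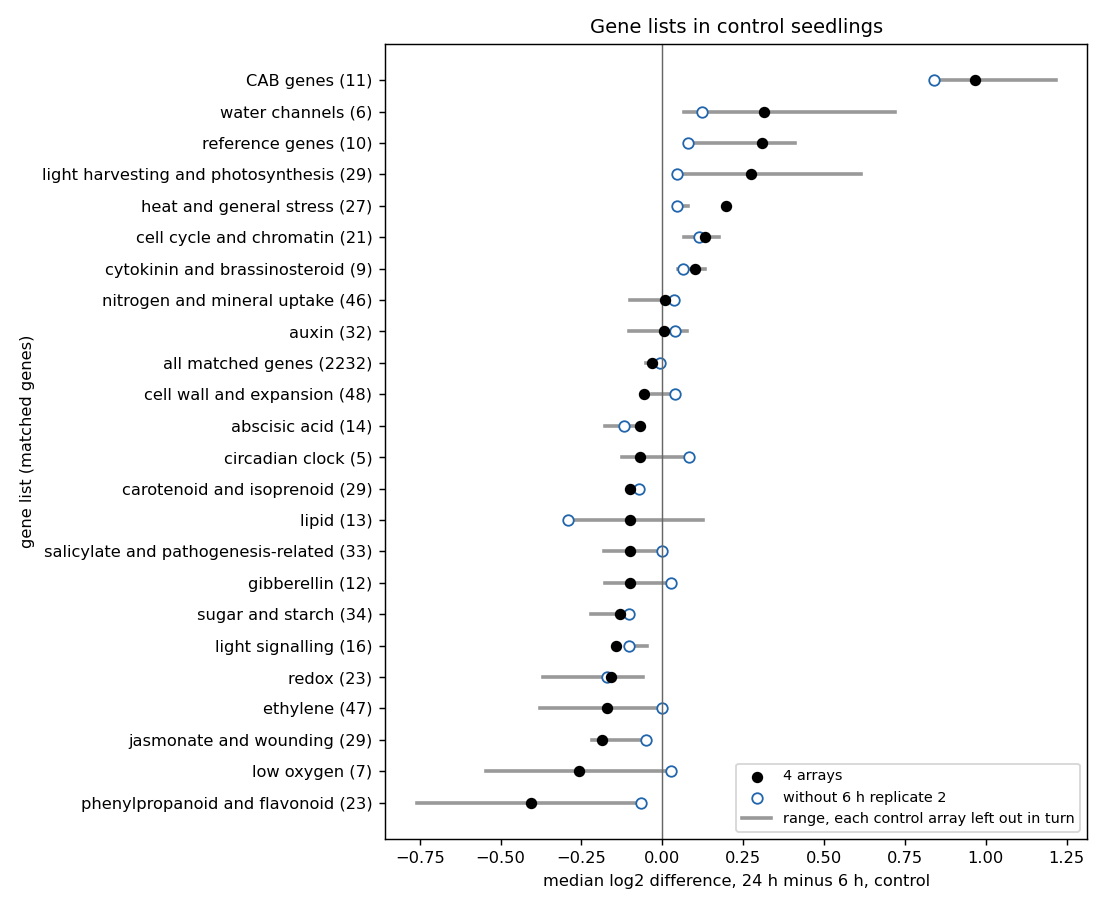
Median log2 difference between 24 h and 6 h in control seedlings (x axis) for each gene list with its number of matched genes (y axis), where the CAB genes are a part of the photosynthesis list. Black points use all 4 arrays, open points leave out 6 h replicate 2 and grey lines span the medians with each control array left out, and the CAB genes stand apart at 0.97 while the phenylpropanoid, ethylene and low oxygen medians come close to 0 in the open points.

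The other treatments were sampled at the same hours on arrays of their own, which lay on the same 3 slides. The 24 h arrays of flg22 were on slides 1 and 2, like those of the controls, and its 6 h arrays on slides 1 and 3. For MBI600 CFCF the 24 h arrays were on slides 1 and 3 and the 6 h arrays on slides 2 and 3. The part of the slides in the likeness between treatments described below was not tested. Over time, limma called 152 probes with flg22 (53 higher, 0.122%, and 99 lower, 0.227%, at 24 h) and 6 with MBI600 CFCF (0.0138%). Of the 53 probes that rose with flg22, 51 were also higher at 24 h in control seedlings, where 49.7% of all probes were, and their median difference in the controls was 0.71. Of the 99 that fell with flg22, 75 were lower in the controls, with a median of -0.19. Of the 11 CAB genes, 4 had a probe in the first group: CAB12, Cab-1D, CAB5 and CAB4. CAB12, Cab-1D and CAB5 differed by 2.596, 1.06 and 0.97 in the controls, and by 2.64, 2.03 and 1.49 with flg22, and the medians of the 11 genes were 0.97 in the controls, 1.48 with flg22 and 1.07 with MBI600 CFCF. Dof22, a zinc finger transcription factor, was at 9.15 and 9.25 at 24 h, against 8.22 and 7.99 at 6 h in the controls, a difference of 1.09, and it differed by 1.33 with flg22 (adjusted p = 0.0343) and 1.14 with MBI600 CFCF. The glycoalkaloid gene GAME1 differed by -1.80 in the controls, -1.52 with flg22 and -1.22 with MBI600 CFCF. The chaperones had smaller differences in the controls: HSP90 differed by 1.40 there, 2.77 with flg22 and 2.56 with MBI600 CFCF, and hsc70.3 by 0.56, 2.47 and 2.07. For neither chaperone did the test of control minus treatment, given below, pass. The 6 probes called with MBI600 CFCF, a probe of ARGOS among them, had the same sign in the controls, but A_96_P128967 differed there by only 0.08, and A_96_P098304 and A_96_P261962 were made from the same sequence. Over all 43603 probes, which are not independent, the time difference of the controls correlated at 0.349 with that of flg22 and at 0.0943 with that of MBI600 CFCF.

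Other genes had another sign with flg22 than in the controls. Of the 12 named genes with the largest positive difference, 7 kept their sign with flg22, and of the 12 with the largest negative difference, 10 did. SRG2 differed by 2.51 in the controls and -0.73 with flg22, ERF5 by 1.60 and -0.60, and 7k-LTP, a small lipid transfer protein, by -1.95 and 1.81. LOX1.1 differed by 0.77 in the controls and fell by 3.60 with flg22. In none of these did the test of the difference itself pass, with an adjusted p between 0.429 and 1.00. That test, control minus flg22, called 1 of 43603 probes (0.00229%), and 0 with any of the control arrays left out, and 1212 had an unadjusted p under 0.05. Control minus MBI600 CFCF called 0 (0%), where the smallest adjusted p was 0.620 and 2657 probes were below 0.05 before adjustment. With 2 arrays a group, a treatment's own time difference and that of the controls were set apart for a single probe, although 152 probes passed in one treatment and 0 in the controls.

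**Figure D5:**
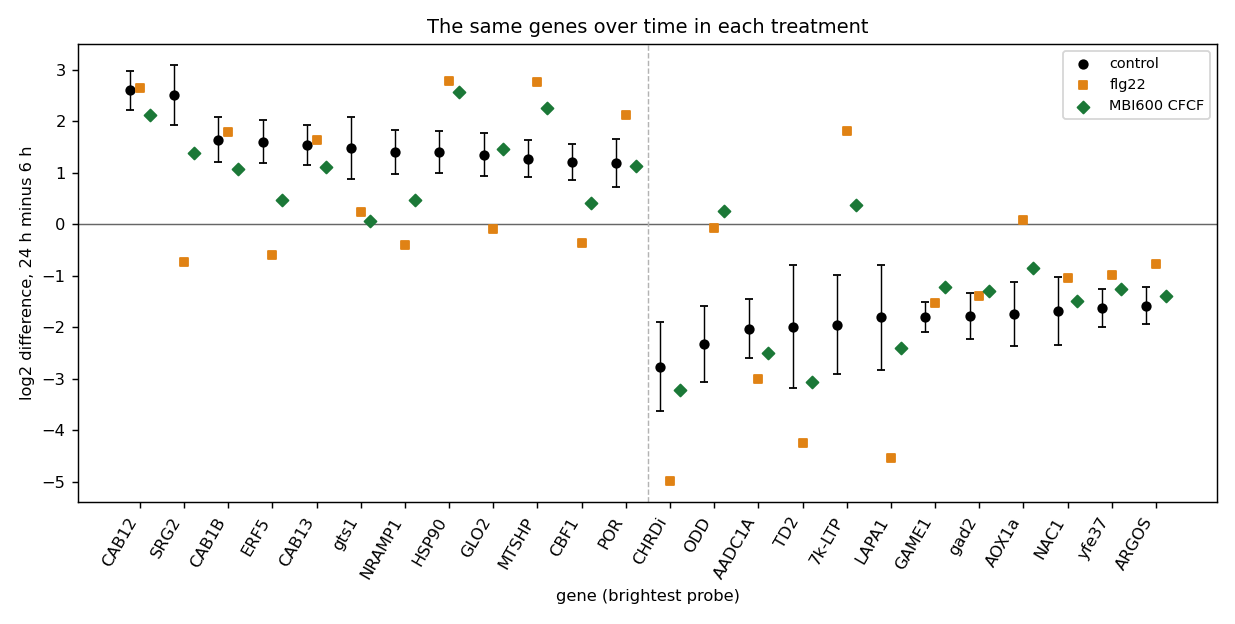
Log2 difference between 24 h and 6 h (y axis) of the 24 named genes (x axis, higher at 24 h in control left of the dashed line) in control (black, with SE of the fit), flg22 (orange) and MBI600 CFCF (green) seedlings. The 3 CAB genes lie between 1.07 and 2.64 in every treatment, whereas SRG2, ERF5 and 7k-LTP lie on opposite sides of 0 in control and flg22 seedlings. So do NRAMP1, CBF1, GLO2 and AOX1a, with flg22 values nearer 0.

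Most of the probes have no gene name here. Of those well above background without a name, A_96_P152376 and A_96_P026271 had the smallest p on the higher side. The first was at 7.44 and 7.57 at 24 h, against 6.62 and 6.49 at 6 h (0.95 ± 0.11), and the second at 7.99 and 8.09 at 24 h, against 6.96 and 6.75 at 6 h (1.19 ± 0.14). On the lower side A_96_P084389 was at 8.41 and 8.80 at 24 h, against 9.88 and 9.95 at 6 h (-1.32 ± 0.15), and A_96_P038201 at 6.24 and 6.20 at 24 h, against 8.06 and 7.64 at 6 h (-1.63 ± 0.20). Each of the 4 had an adjusted p of 0.208. They were chosen by the smallest p among probes whose groups do not overlap, so their clear split by time is part of the choice.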

How the data were processed

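Green-channel RNA signals of 12 two-colour Agilent tomato arrays were used. The scanner files hold raw intensity values per spot, as the authors deposited them, with Agilent Feature Extraction named in the submitters' processing notes. The deposited series table holds log2 values that the authors made in limma by the normexp method (offset 50) and quantile normalization, and rebuilding them from the scans gave differences of at most 5e-09. Control spots were left out and 43803 spots averaged to 43603 probes. A linear model with 6 group means was fitted in limma 3.58.1 (R 4.3.3) with empirical Bayes, with Benjamini-Hochberg adjustment across the probes. Calls needed an adjusted p under 0.1, and the same fit gave the tests of differences between treatments. The steps were tested on simulated data.

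Probes were named through RefSeq transcripts (assembly SLM_r2.1, names only), which matched 4884 probes to 2232 genes. The 22 gene lists and both tissue marker lists were matched by symbol or synonym, and 2 names that matched a gene of another kind were left out after they were seen. The rule for names took up to 4 genes per list with the largest difference, of which the text gives a part, and the 12 named genes with the largest difference per direction among those whose groups do not overlap. Further genes named, such as the other CAB genes, were chosen after their values were seen. The members and lists were chosen with earlier results of these data known. Alternatives were other background corrections, scalings, filters and thresholds, the red channel, replicate or slide terms, and each control array left out. Promoter motifs were not analysed here. The number of arrays limits the precision, and the SD of 2 pools covers only the spread between these samples.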

Additional observations from a re-analysis of the deposited data

Results flagged for a closer look

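For 1 probe the time difference in control seedlings and that with flg22 differed by the test of the difference itself. A_96_P248982, which has no gene name here, had a control minus flg22 difference of 2.26 on the log2 scale (adjusted p = 0.0528). It was not well above background on any control array, at 5.97 and 5.89 at 24 h, against 5.80 and 5.95 at 6 h, and with flg22 it was at 6.07 and 6.04 at 24 h, against 8.11 and 8.41 at 6 h. Groups of 2 arrays are too small for a test of outlying samples.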

How the results depend on the processing

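The count of 0 probes called over time in control seedlings stayed 0 in 13 of the 14 other fits that kept all control arrays, with smallest adjusted p-values from 0.132 to 0.905. The scanner's processed signal called 3, all lower at 24 h (A_96_P038201, A_96_P114347 and TPS32), and a difference of at least 2 without a p-value gave 30. With each control array left out in turn the count ranged from 0 to 13. Without 6 h replicate 1, limma called 13, all lower at 24 h and named only as AADC1A (-3.10) and AOX1a (-2.91), and the lone 6 h array was assumed to vary like the other groups. Scaling to the 75th percentile moved the median of all probes to -0.22, and 847 probes then had an unadjusted p under 0.05, against 2054. The single probe called in control minus flg22 was lost (0 called) with the replicate block, with the slide as a block, with the processed signal, and in all 4 fits with an array left out (0 to 0). No source pairs the replicate numbers. The differences between replicates correlated at -0.30 across probes between the 24 h and 6 h controls, and the fit with the replicate block called 0 probes over time, as did a fit with the numbers crossed, which was added after seeing the data. Of 70 genes tried, AADC1A and AOX1a passed in 1 fit and 6 changed sign under some alternative: CAB7 (-0.10 on slide 2, -0.14 to 1.01 with an array left out), CAB6A (-0.053 in the processed signal, -0.022 to 0.21), PSAD (LOC543978, -0.12 to 1.80), ADH2 (-0.67 to 2.54), PR1b1 (-0.000356 with the slide as a block, -1.03 on slide 2, -0.70 to 1.58 with an array left out) and PCL1 (0.024 in the ratio of green to red). The cause was not tested. Arrays per group, 2 in each, and dim probes limit all values.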
